A study of Rattus norvegicus with 6 samples.

Results

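The genes described here are 10 transcription factors grouped as AP-1, Myc and early factors: the AP-1 subunits Fos, Fosb, Fosl1, Fosl2, Jun, Junb and Jund, the zinc finger factors Egr1 and Klf4, and Myc. They were taken by symbol from a table of 30957 rat genes. All 10 symbols were found once, and all 10 passed the filter on low counts that left 12261 genes for testing. RNA was sequenced from 6 libraries of BRL-3A, a cell line from rat liver kept in culture. Of these, 3 are labelled NC, a name the labels leave unexplained, as they do what these cells were transfected with, and 3 are labelled si-hnrnpa2b1 and called knockdown libraries here. The protocol has siRNA delivered by lipid reagent for 48 h. All 6 libraries carry the same strain (Sprague-Dawley), tissue (liver) and disease state (raised blood triglycerides) labels, although they come from 1 cultured line. The comparison addresses which of these factors differ in mRNA level when Hnrnpa2b1, an RNA-binding protein of the hnRNP family, is lowered.

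AP-1 is a dimer of basic leucine zipper proteins: a Jun protein pairs with a Fos protein or with another Jun protein and binds a short palindromic site in DNA. Growth factors and stress act on these genes through MAP kinases, serum response factor (SRF) and Ets partners, so that Fos and Egr1 transcripts appear within minutes and vanish again, while Fosl1, Fosl2 and Jund are held for longer. Myc pairs with Max on the E-box and drives ribosome production and growth, and Klf4 is a Krüppel-like zinc finger factor that both activates and represses genes of differentiation and growth. In liver, Jun and Myc are known for their induction when hepatocytes re-enter the cell cycle during regeneration.

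Myc and Klf4 rose after knockdown, and none of the 7 AP-1 subunits nor Egr1 passed the test. Myc mRNA rose 1.42-fold (95% interval 1.27 to 1.58) and Klf4 mRNA 1.20-fold (1.11 to 1.298). By the quasi-likelihood test of edgeR, adjusted by Benjamini-Hochberg over all 12261 genes, 2 of the 10 factors rose, 0 fell and 8 did not pass at an adjusted p below 0.05; 4 had an unadjusted p below 0.05. The same test called 5.30% of all tested genes, 2.36% upward and 2.94% downward. The log2 fold change was above 0 in 5 of the 10 factors, and their median was 0.05, against 0.00 over all tested genes.

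The libraries held 13374412 to 15224108 counts. Levels are given as CPM, the counts per unit of library size after TMM (trimmed mean of M-values) scaling, and as mean ± SD over n = 3 libraries; every fold change sets knockdown over NC and carries its SE. Hnrnpa2b1 itself stood at 1014 ± 56.0 CPM in NC and 607 ± 48.2 CPM after knockdown (log2 -0.74 ± 0.06, adjusted p from edgeR 2.3e-06). Separate cultures are not mentioned in the labels, and the p-values then reflect just the spread among these 6 samples, which may be technical. Of 15 hepatocyte markers 8 had 0 counts in all 6 libraries, among them Alb, Ttr, Apob and Hnf4a; the summed level of the list was 216 to 221 CPM in NC and 231 to 247 CPM after knockdown, of which 86.7% came from G6pc. Summed fibroblast and stellate markers reached 15286 to 15676 CPM in NC and 15211 to 16179 CPM after knockdown, of which 75.7% came from Col1a1. Of the 13 markers, Col1a2 and Lrat had 0 counts in all 6 libraries. Pdgfra and Lum were low, at 1.14 and 0.625 CPM in NC. Of the 10 tested, 3 rose (Acta2, Des and Tagln, genes of contractile cells) and 0 fell. The part of these markers in the results below was not tested. Leukocyte markers summed to at most 3.32 CPM. In bulk RNA, more cells of a type and more RNA per cell cannot be told apart.

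NC replicate 2 had the highest NC value for 8 of the 10 factors, all but Fosl2 and Jund, while over all tested genes it was the highest NC library in 35.7%. Its excess over the NC mean on the log2 scale was largest in Fos (0.54), Fosb (0.28), Egr1 (0.27), Fosl1 (0.25) and Junb (0.15). The same library was the highest of the NC group in 19 of 34 other early response genes and in 21 of 28 AP-1 target genes. Without it the factors called were still Myc (log2 0.54, edgeR adjusted p = 6.7e-04) and Klf4 (log2 0.29, edgeR adjusted p = 0.0037). Without the same library the log2 fold change was 0.05 for Fos, -0.28 for Fosb, 0.50 for Fosl1, -0.08 for Fosl2, 0.13 for Jun, 0.19 for Junb, -0.07 for Jund and 0.12 for Egr1, and none of these passed (edgeR adjusted p from 0.077 to 0.95).

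**Figure D1:**
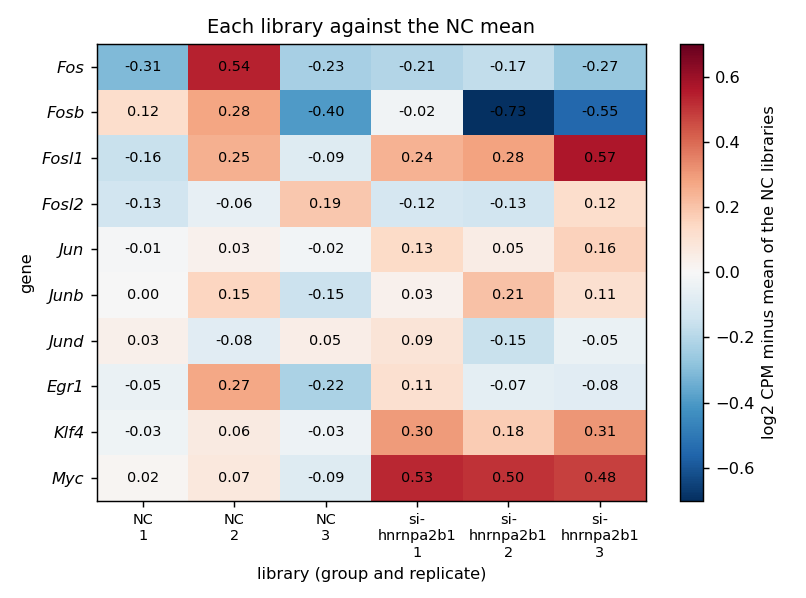
Heat map of the 10 factors (rows) in the 6 libraries (columns); each cell gives the log2 CPM minus the mean of the 3 NC libraries. Myc lies 0.48 to 0.53 above the NC mean after knockdown and Klf4 0.18 to 0.31, while NC replicate 2 lies 0.54 above it in Fos and 0.27 in Egr1.

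Myc (ENSRNOG00000004500, chromosome 7, 102586313 to 102591237 of Rnor_6.0) gave 29.0, 30.2 and 27.0 CPM in the NC libraries and 41.4, 40.7 and 40.0 CPM after knockdown. The groups lay apart, with the lowest knockdown value well above the highest NC value. The means were 28.7 ± 1.61 and 40.7 ± 0.696 CPM, which is 0.50 ± 0.07 on the log2 scale (edgeR adjusted p = 6.4e-04), the 91st smallest p of all tested genes. Among the 650 genes changed by the test, 499 changed by less than Myc did. The call held under all 15 alternative settings, with log2 fold changes from 0.46 to 0.54 and adjusted p from 2.7e-05 to 0.010. Per length, Myc went from 12.3 ± 0.594 to 17.4 ± 0.190 FPKM (fragments per length and library size), a level at the 54.1 percentile of tested genes in NC.

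Across the 6 libraries the 3 tested genes (provisional LOC and RGD symbols left out) closest to Myc in centred log2 CPM were Col8a1, Sorbs2 and Fmod, with root mean square differences of 0.04, 0.04 and 0.05. Col8a1, a short-chain collagen, gave 94.4, 90.6 and 87.2 CPM in NC and 129, 127 and 123 CPM after knockdown. Fmod, the matrix proteoglycan fibromodulin, gave 116, 118 and 117 CPM in NC and 170.1, 169 and 166 CPM after knockdown. Sorbs2, an adaptor of the actin cytoskeleton, lay at 4.85 to 5.07 CPM in NC and 6.78 to 6.98 CPM after knockdown. Both matrix genes passed the test (edgeR adjusted p = 5.8e-05 and 8.0e-06), and Sorbs2, with fewer counts, did not (0.083). Since the 3 genes were picked for likeness to Myc over these same libraries, a similar difference between the groups was built in.

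Klf4 (ENSRNOG00000016299, chromosome 5, 72283313 to 72287669) gave 126, 135 and 126 CPM in the NC libraries and 159, 146 and 160.1 CPM after knockdown. The groups did not overlap, as in 23.4% of all tested genes, although knockdown replicate 2 lay only a little above NC replicate 2. From 129 ± 4.94 to 155 ± 7.89 CPM, the log2 fold change was 0.26 ± 0.05 (edgeR adjusted p = 0.0077). Without knockdown replicate 3 the adjusted p was 0.055 at a log2 fold change of 0.24; over all 15 alternatives it ran from 9.2e-04 to 0.055. At 54.6 ± 1.48 FPKM in NC and 65.4 ± 3.19 FPKM after knockdown, Klf4 was second only to Jund among the 10 factors in both groups.

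The RefSeq promoter table (build GRCr8, 250 bases before to 50 after each start site) held 7 of the 10 genes; Fos, Jun and Myc were not among them. Promoters are shown for Klf4, which rose, and for Egr1 and Jund, which did not pass the test, so that the motifs of the early response can be compared. Both strands were searched for the AP-1 site TGANTCA, the cyclic AMP response element TGACGTCA, the E-box CACGTG, the Egr site GCGNGGGCG, the TATA box TATAAA, the Ets core CCGGAA and the CArG box bound by SRF; a CArG box can contain TATAAA, but no 2 matches overlapped in these windows. Capitals mark the matches.
Klf4, chr5:75078543-75078842, minus strand: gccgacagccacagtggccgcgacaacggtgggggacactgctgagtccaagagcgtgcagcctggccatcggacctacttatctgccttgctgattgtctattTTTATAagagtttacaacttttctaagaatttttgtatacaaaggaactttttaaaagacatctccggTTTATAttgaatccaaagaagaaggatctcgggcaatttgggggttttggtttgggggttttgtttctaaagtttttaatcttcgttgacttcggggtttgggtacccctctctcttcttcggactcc
Egr1, chr18:26736828-26737127, plus strand: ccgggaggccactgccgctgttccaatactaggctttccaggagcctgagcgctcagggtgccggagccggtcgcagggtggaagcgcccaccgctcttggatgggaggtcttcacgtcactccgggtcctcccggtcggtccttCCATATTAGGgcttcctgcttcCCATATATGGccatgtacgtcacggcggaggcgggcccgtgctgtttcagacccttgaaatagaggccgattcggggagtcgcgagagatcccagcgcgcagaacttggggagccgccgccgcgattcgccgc
Jund, chr16:18769722-18770021, minus strand: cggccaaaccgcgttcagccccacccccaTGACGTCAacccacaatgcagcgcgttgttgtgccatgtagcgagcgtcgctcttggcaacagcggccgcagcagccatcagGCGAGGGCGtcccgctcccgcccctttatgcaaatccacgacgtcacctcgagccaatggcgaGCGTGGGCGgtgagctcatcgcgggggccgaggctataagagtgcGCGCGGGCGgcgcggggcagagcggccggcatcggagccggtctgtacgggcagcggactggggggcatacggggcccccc
In the Egr1 window there were 2 CArG boxes, at -105 to -96 and -83 to -74 from the start site, a motif present in 1.64% of all 33469 promoters in the table. The Klf4 window held none of these motifs other than TATAAA read on the opposite strand, at -146 to -141 and -78 to -73; that motif is in 14.2% of promoters. The Jund window held a cyclic AMP response element at -221 to -214, found in 1.83% of promoters, and 3 Egr sites, found in 4.98%. Fosl2 had 2 Egr sites, Junb had TATAAA at -49 to -44, and Fosl1 had none of the motifs. Fosb had TATAAA read on the opposite strand, at -180 to -175. AP-1 sites, E-boxes and Ets cores, found in 7.33%, 6.42% and 14.95% of promoters, were in none of the 7 windows.

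**Figure D2:**
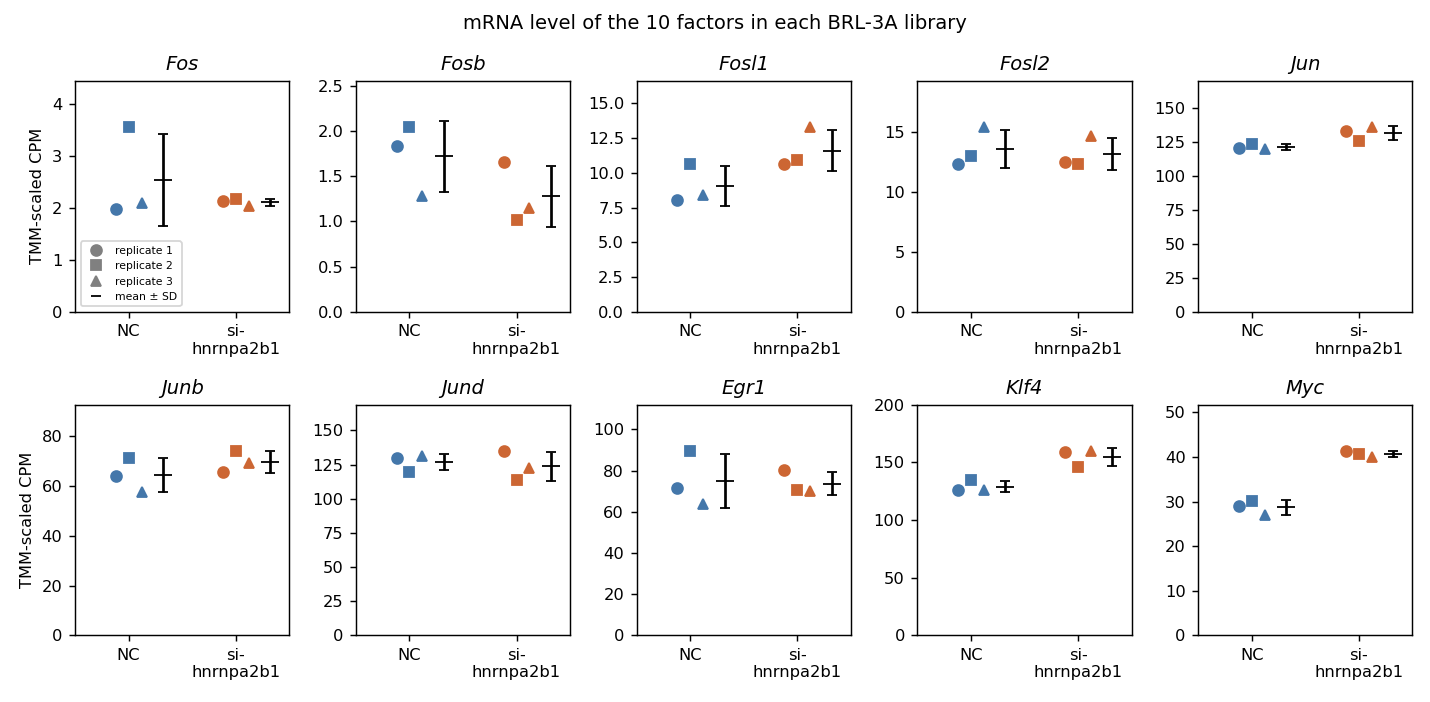
TMM-scaled CPM of the 10 factors in each library (points; shape gives the replicate number), with the mean ± SD of each group beside them, on axes that start at 0. Of the 10, only Jun, Klf4 and Myc have groups that do not overlap, as do 23.4% of all tested genes.

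Egr1, an immediate early zinc finger factor (ENSRNOG00000019422, chromosome 18, 27657628 to 27661429), gave 71.8, 89.5 and 63.5 CPM in NC and 80.3, 70.7 and 70.1 CPM after knockdown. All 3 knockdown values lay within the range of the NC values. The log2 fold change was -0.02 ± 0.10 (edgeR adjusted p = 0.95), with a 95% interval from -0.23 to 0.19. Without NC replicate 2 its sign turned, to 0.12 (edgeR adjusted p = 0.44). The pooled spread within groups, an SD of 0.19 on the log2 CPM scale, stood at the 76.0 percentile of tested genes, against the 18.9 percentile for Myc (0.06) and the 22.6 percentile for Klf4 (0.07).

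In the Fos family, which dimerises only with partners such as Jun, no gene passed the test. Fos, the founding member, was barely expressed, with 28, 47 and 31 counts in NC and 32, 32 and 30 counts after knockdown. In CPM that was 1.98, 3.55 and 2.09 against 2.12, 2.17 and 2.03, so NC replicate 2 alone stood high and the other 5 libraries lay close together. Its log2 fold change of -0.26 ± 0.27 (edgeR adjusted p = 0.69; 95% interval -0.84 to 0.33) became 0.05 without that library. Fosb, a close relative of Fos, had 15 to 27 counts per library, with 1.83, 2.04 and 1.28 CPM in NC and 1.66, 1.02 and 1.15 CPM after knockdown. Its groups overlapped, and at -0.42 ± 0.32 on the log2 scale (edgeR adjusted p = 0.54) its interval, -1.10 to 0.26, was the widest of the 10.

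Fosl1, which encodes Fra-1, a Fos protein without the transactivation domain of Fos, gave 8.04, 10.7 and 8.41 CPM in NC and 10.6, 10.9 and 13.3 CPM after knockdown. The groups overlapped only through NC replicate 2, which lay just above the lowest knockdown library. The log2 fold change of 0.36 ± 0.14 had an unadjusted p of 0.022 and an edgeR adjusted p of 0.17. Without NC replicate 2 it was 0.50 (edgeR adjusted p = 0.077), and over all alternatives the adjusted p ran from 0.077 to 0.49, so Fosl1 passed in none of them. Fosl2, which encodes Fra-2, gave 12.3, 13.0 and 15.4 CPM in NC and 12.5, 12.3 and 14.7 CPM after knockdown. These groups spanned nearly the same range (log2 -0.05 ± 0.12, edgeR adjusted p = 0.90; 95% interval -0.31 to 0.21).

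In the Jun family, whose members form dimers with each other and with Fos proteins, Jun (ENSRNOG00000026293, chromosome 5, 114011189 to 114014277) gave 121, 124 and 120.0 CPM in NC and 133, 126 and 136 CPM after knockdown. The groups did not overlap, as was the case for 23.4% of all tested genes. The log2 fold change was 0.12 ± 0.05, with an unadjusted p of 0.036 and an edgeR adjusted p of 0.23, and its interval reached from 0.01 to 0.22. Junb, which often opposes Jun in growth control, gave 64.1, 71.2 and 57.7 CPM in NC and 65.4, 74.0 and 69.2 CPM after knockdown. Its groups overlapped (log2 0.11 ± 0.08, edgeR adjusted p = 0.47), and leaving out 1 library moved the fold change between 0.04 (without NC replicate 3) and 0.19 (without NC replicate 2) on the log2 scale, with no call. Jund, the Jun protein found in resting cells, gave 129.9, 120 and 131 CPM in NC and 135, 114 and 123 CPM after knockdown. Here the highest and the lowest of the 6 values were both knockdown libraries (log2 -0.03 ± 0.06, edgeR adjusted p = 0.85; 95% interval -0.17 to 0.10).

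**Figure D3:**
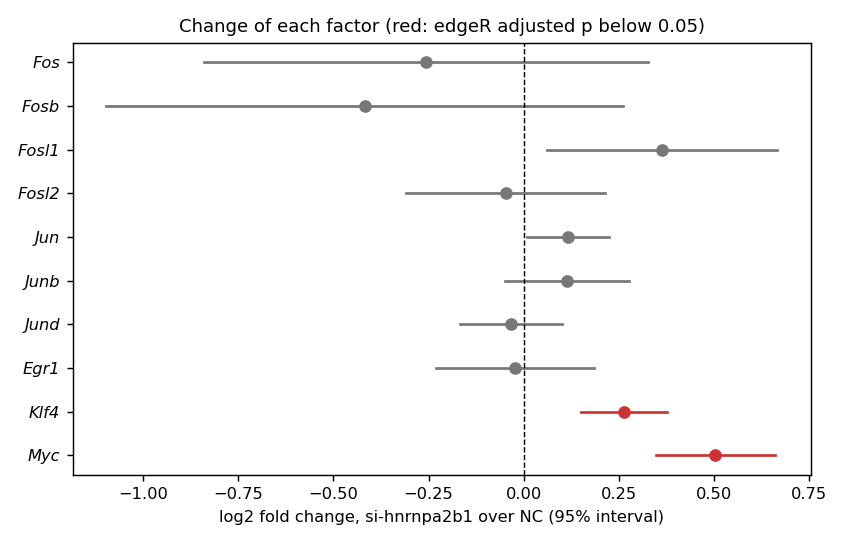
Log2 fold change of each factor, si-hnrnpa2b1 over NC, as a point with its 95% interval from the edgeR fit; red marks an adjusted p below 0.05. The intervals of Myc (0.35 to 0.66) and Klf4 (0.15 to 0.38) lie above 0 and are called; those of Fosl1 and Jun lie above 0 but did not pass after adjustment.

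By the deposited FPKM, the Jun family sum exceeded the Fos family sum in every library. Summed FPKM of Jun, Junb and Jund was 154, 149.7 and 150.3 in NC and 159, 150.5 and 157 after knockdown. Summed FPKM of Fos, Fosb, Fosl1 and Fosl2 was 23.1, 26.1 and 27.5 in NC and 24.5, 24.7 and 29.3 after knockdown. The ratio of the Jun to the Fos sum was 5.94 ± 0.614 in NC and 5.97 ± 0.580 after knockdown. All 3 quantities overlapped between the groups (two-sided exact permutation p = 0.20, 0.80 and 1); with 3 against 3 libraries this test cannot go below 0.10, so it cannot show whether they differ. The size of the ratio rests on the lengths behind the deposited FPKM, which were 744 bases for Fosl2, whose locus spans 18060 bases, and 6563 bases for Fosb, whose locus spans 7217. From CPM, which uses no length, the ratio was 11.7 ± 1.16 in NC and 11.6 ± 0.980 after knockdown.

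Jund was the most abundant factor, at 75.7 ± 4.45 FPKM in NC and 73.7 ± 5.80 FPKM after knockdown, and made up 50.1% and 47.4% of the Jun family sum. In NC the order of levels was Jund, Klf4 (54.6), Jun (39.4 ± 0.260), Junb (36.1 ± 3.44), Egr1 (23.9 ± 3.99), Fosl2 (18.3 ± 2.24), Myc (12.3), Fosl1 (5.44 ± 0.789), Fos (1.60 ± 0.534) and Fosb (0.262 ± 0.0583 FPKM). Jun and Junb overlapped in the NC libraries, and so did Egr1 and Fosl2; the other neighbours in that order did not. The order was the same after knockdown, where Jun (42.6 FPKM) overlapped Junb (39.0) and Fosl2 (17.7) overlapped Myc (17.4). Fosl2 provided 71.4% of the Fos family FPKM in NC and Fosl1 21.3%, and after knockdown the shares were 67.6% and 26.6%. The share of Fosl1 was higher in all 3 knockdown libraries than in any NC library (exact permutation p = 0.10, the smallest possible). The share of Jun in its family, 26.1% in NC and 27.4% after knockdown, had the same exact permutation p. Among all tested genes, 23.4% had groups that did not overlap in level. The places of Fosl2 and Fosb in the order, and the shares within the Fos family, rest on the same 2 lengths. By counts alone Fosl2 held 50.7% and Fosl1 33.5% of the Fos family in NC, and 46.8% and 41.1% after knockdown.

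**Figure D4:**
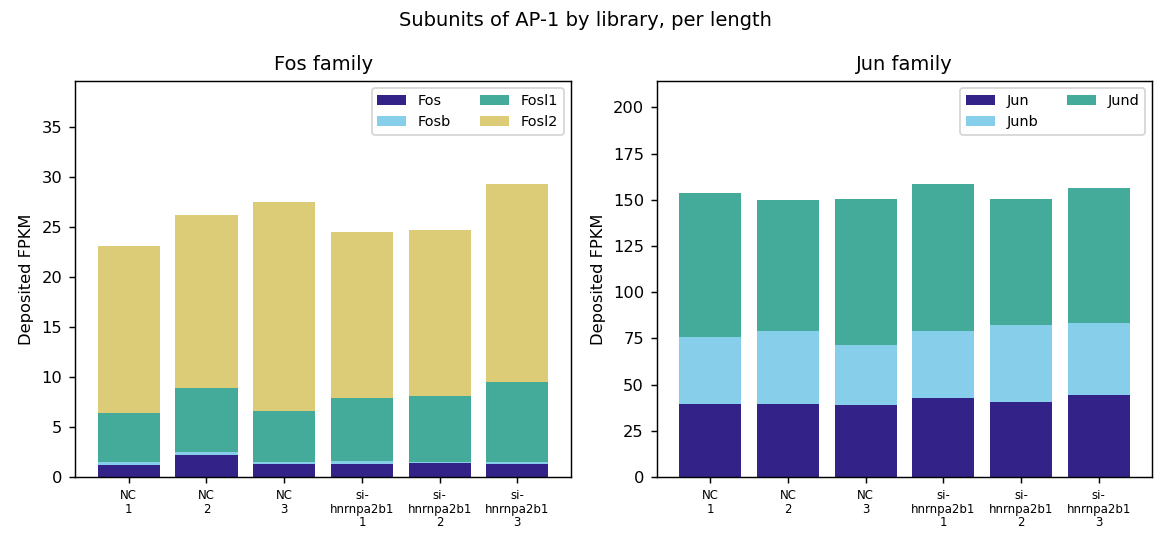
Stacked deposited FPKM of the 4 Fos family genes (left) and the 3 Jun family genes (right) in each library; the vertical axes differ and both start at 0. The Jun sum lies between 149.7 and 159 FPKM and the Fos sum between 23.1 and 29.3 FPKM, with Jund and Fosl2 as the main parts.

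Other genes of these pathways were read from lists. For the counts below, edgeR called 5.30% of all tested genes, 2.36% upward and 2.94% downward. An unadjusted p below 0.05 was found in 4 of 12 tested basic leucine zipper partners or relatives of Fos and Jun. Of the 12, 0 passed by edgeR and 0 by DESeq2. Their median log2 fold change was -0.07; those with the smallest adjusted p were Mafk, a small Maf protein (0.25, edgeR adjusted p = 0.14), Maf (-0.21, 0.15), Atf7 (-0.26, 0.18) and the cyclic AMP responsive modulator Crem (-0.37, 0.27). Maf passed without NC replicate 1 (edgeR adjusted p = 0.021). Of 13 tested genes of the Myc network 1 rose, 0 fell and 12 did not pass. The riser was Mycn, the paralog of Myc, with 53.9, 46.2 and 53.2 CPM in NC and 59.6, 65.5 and 62.8 CPM after knockdown. Its log2 fold change was 0.29 ± 0.07 (edgeR adjusted p = 0.025), and the call was lost without NC replicate 2, knockdown replicate 2 or knockdown replicate 3, with the replicate block and by both limma fits; the adjusted p ran from 0.016 to 0.13 among all alternatives. Max, the obligate partner of Myc, averaged 113 CPM in NC and 123 CPM after knockdown (log2 0.12 ± 0.05; edgeR, adjusted p = 0.24). The antagonists Mxi1 and Mxd1, which compete for Max, gave -0.18 and 0.22 (edgeR adjusted p = 0.22 and 0.28).

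Upstream of the early genes, 1 of 5 tested genes of the SRF group passed. Srf itself gave 71.0, 71.9 and 70.2 CPM in NC and 88.0, 79.3 and 82.5 CPM after knockdown (log2 0.23 ± 0.06, edgeR adjusted p = 0.033). Its groups did not overlap, as in 23.4% of all tested genes. The call was lost without NC replicate 1, NC replicate 3, knockdown replicate 1 or knockdown replicate 3. It was also lost with the replicate block and by limma on FPKM (adjusted p from 0.028 to 0.14 over all alternatives). Elk4, an Ets cofactor of SRF, gave 122 CPM in knockdown replicate 1 and 37.0 to 45.1 CPM in the other 5 libraries; its log2 fold change of 0.75 (edgeR adjusted p = 0.17) was 0.04 without that library, and without knockdown replicate 3 it passed (1.04, edgeR adjusted p = 0.043). The cofactors Elk3 and Mkl1 gave -0.15 and -0.12 (edgeR adjusted p = 0.26 and 0.33). Of 18 tested genes of MAP kinases, their kinases and the ribosomal S6 kinase family, 0 passed by edgeR and 0 by DESeq2. An unadjusted p below 0.05 was found in 1 of the 18, and their log2 fold changes ran from -0.11 to 0.21. The ribosomal S6 kinase Rps6ka2 stood at 0.21, Map2k5 at -0.09, Mapk8, which encodes the Jun kinase JNK1, at -0.09 and Mapk3, which encodes ERK1, at -0.06. Of 16 tested relatives of Egr1 and Klf4 0 passed by edgeR and 0 by DESeq2, 1 having an unadjusted p below 0.05. Klf2 had the smallest adjusted p (log2 0.55, edgeR adjusted p = 0.15; 0.042 without knockdown replicate 3), then Klf9 (-0.09, 0.30), Klf16 (0.17, 0.44) and the Egr1 corepressor Nab2 (0.09, 0.45).

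Among 34 other early response genes 6 rose, 2 fell and 26 did not pass, and the median was 0.01. The share called was 23.5%, against 5.30% of all tested genes. Cyr61, a matricellular protein, gave 147, 151 and 141 CPM in NC and 195, 192 and 190 CPM after knockdown (log2 0.39 ± 0.05, edgeR adjusted p = 1.1e-04). Hbegf, a ligand of the epidermal growth factor receptor, rose from 10.8 ± 1.16 to 17.7 ± 1.40 CPM, the stress gene Gadd45a from 40.8 ± 0.434 to 55.1 ± 3.06 CPM and the polo-like kinase Plk2 from 136 ± 9.18 to 165 ± 3.78 CPM. The edgeR adjusted p of these was 0.0018, 9.2e-04 and 0.0065, and all 4 genes passed under every one of the 15 alternatives. Ctgf and the MAP kinase phosphatase Dusp1 also rose, and the mRNA decay factor Zfp36l1 and the pseudokinase Trib1 fell, each losing its call under 3 to 9 of the 15 alternatives. The number of changed genes in the list was 5 without knockdown replicate 2 or 3 and 4 by limma on FPKM. Without NC replicate 2 it was 9, of which 6 rose and 3 fell.

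Among 28 tested AP-1 target genes 5 rose, 3 fell and 20 did not pass, with a median of 0.06. That is 28.6% called, against 5.30% of all tested genes. Ccnd1, the cyclin D1 gene, gave 143, 157 and 151 CPM in NC and 213, 233 and 219.8 CPM after knockdown (log2 0.56 ± 0.05, edgeR adjusted p = 8.8e-06). The collagen crosslinking enzyme Loxl2 rose from 233 ± 9.44 to 306 ± 24.7 CPM and the chromatin protein Hmga1 from 10.2 ± 2.64 to 17.6 ± 1.03 CPM (edgeR adjusted p = 5.6e-04 and 0.0047). Mmp10, which encodes the matrix metalloproteinase stromelysin-2, gave 5.01, 8.09 and 3.77 CPM in NC and 11.1, 12.3 and 11.3 CPM after knockdown (edgeR adjusted p = 0.0050), its NC value was highest in NC replicate 2, and its call was lost by limma on FPKM (adjusted p 0.058 and 0.064). Its relative Mmp3, stromelysin-1, had 9.38, 19.2 and 9.96 CPM in NC and 20.1, 21.8 and 22.3 CPM after knockdown (edgeR adjusted p = 0.034), and its call was lost under 8 of the 15 alternatives, DESeq2 among them (adjusted p = 0.24). The genes that fell were those of the metallothionein Mt1, the collagenase Mmp14 and the lysyl oxidase Lox, which lost their calls under 1, 8 and 11 alternatives. The list's number of changed genes was 4 without NC replicate 1, 5 without knockdown replicate 2 or 3, and 5 and 4 by limma on FPKM. Without NC replicate 2 it was 8, of which 7 rose and 1 fell, so the split by direction depended on that library.

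Both stromelysin promoters carried an AP-1 site near the start site and are shown with 10 bases on either side (GRCr8, plus strand, capitals for the site).
Mmp3, chr8:12925200-12925226: gaagcaattaTGAGTCAgtttgcgggt
Mmp10, chr8:12974636-12974662: agcacccacaTGAGTCAtgcttagtga
These sites lay at -71 to -65 and -61 to -55. Of the 19 tested AP-1 targets with a promoter in the table, 6 (31.6%) held an AP-1 site, against 7.33% of all promoters. The list was made of AP-1 targets, so this share says nothing about the knockdown. Among the 19, 2 of the 3 changed genes held the site. Of the 29 other early response genes with a promoter in the table, 2 (6.90%) held a CArG box, against 1.64% of all promoters, and 0 of the 7 changed genes among them did.

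Among 36 tested Myc target genes 7 rose, 0 fell and 29 did not pass. That is 19.4% called, all upward, against 2.36% of all tested genes called upward. The log2 fold change was above 0 in 34 of the 36, against 6081 of the 12261 tested genes. Their median was 0.13, against 0.00 over all tested genes. This list, like the others, was chosen with earlier results of these data known. Nop56, a core protein of small nucleolar ribonucleoproteins, gave 122, 125 and 117 CPM in NC and 150.1, 150.2 and 157 CPM after knockdown (log2 0.33 ± 0.05, edgeR adjusted p = 8.8e-04). Rrs1, a ribosome assembly factor, rose from 49.1 ± 2.00 CPM to 64.2 ± 2.22 after knockdown (log2 0.39 ± 0.06, edgeR adjusted p = 0.0016). Odc1, which encodes ornithine decarboxylase of polyamine synthesis, rose from 121 ± 8.02 to 143 ± 0.469 CPM, and Rcl1, another factor of ribosomal RNA processing, from 61.6 ± 4.63 to 74.5 ± 1.63 CPM (edgeR adjusted p = 0.014 and 0.021). Nop58, Pa2g4 and Shmt2 rose by 0.18, 0.20 and 0.17 on the log2 scale. Nop56 and Rrs1 passed under all 15 alternatives, the other 5 lost their calls under 5 to 8. The list's number of changed genes was 2 by limma on FPKM and without knockdown replicate 3, 3 without NC replicate 1, NC replicate 3, knockdown replicate 1 or knockdown replicate 2, and 4 with the replicate block. It was 9, all upward, without NC replicate 2 and by DESeq2. Of the 32 tested Myc targets with a promoter in the table, 10 (31.2%) held the E-box CACGTG, against 6.42% of all promoters. That share too describes a list made of targets and not the knockdown. Among the 6 that rose and had a promoter in the table, only Rcl1 held the E-box, at 12 to 17 bases after the start site (GRCr8, plus strand, E-box in capitals).
Rcl1, chr1:236238116-236238141: tgttctaaacCACGTGgacgcgtcgg

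**Figure D5:**
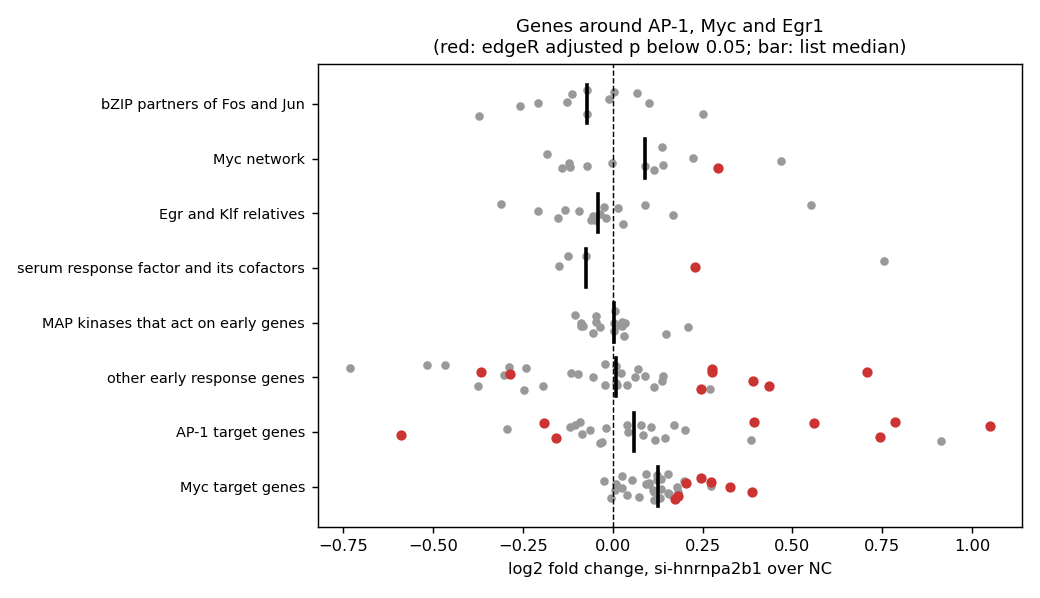
Log2 fold change, si-hnrnpa2b1 over NC, of every tested gene of 8 lists around the 10 factors; each point is a gene, red marks an edgeR adjusted p below 0.05 and the black bar is the list median. The Myc targets lie to the right of 0 in 34 of 36 genes and the other early response genes in 18 of 34. Over all tested genes this was so in 6081 of 12261.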

How the data were processed

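The deposited table held whole-number counts and FPKM for each rat gene in 6 libraries, 1 column each, matched to samples by title; the number of unused per-sample columns was 0. HISAT2 2.0.4, StringTie 1.3.0, edgeR and the build Rnor_6.0 are named, without roles, per the submitters' processing notes. The counts deposited by the authors are not normalized. The FPKM deposited by the authors equal the count over 1 length per gene and the column total, to within 0.0462%. Annotation release, counter and strandedness: not given in the sources used here. No model of the 10 genes overlaps another model in the table.

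Counts were tested with edgeR 4.0.16 (R 4.3.3): filterByExpr (minimum count 10, minimum total 15), TMM scaling, quasi-likelihood F-test without covariates on all 6 libraries, Benjamini-Hochberg adjustment over all tested genes, threshold 0.05. The SE is the log2 fold change over the root of F. The 15 alternatives were DESeq2 1.42.0, 3 other scalings, 2 other filters, limma 3.58.1 with a pseudocount of 1 or 0.1 on FPKM (mean at least 0.1, log2 scale), the replicate number as a block, and each library left out. The fitting procedure was also tested on simulated counts with known changes. Replicates differed by more than sampling noise (chi-square per degree of freedom 2.91 to 6.00). Intervals of the fit are 95% intervals. Promoter sequences are RefSeq's (GRCr8).

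The members and the lists were chosen with earlier results of these data known. Named were all 10 factors, up to 4 genes of each list by adjusted p, Hnrnpa2b1, and the 3 genes closest to the factor with the smallest adjusted p in centred log2 CPM (prior count 2); changed list genes beyond these, and the fibroblast markers that rose, were named after their values were seen. In the Myc network, the entry Miz1 was read as Zbtb17.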

Additional observations from a re-analysis of the deposited data

How the results depend on the processing

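The number of changed genes was 650, and 257 and 246 by limma on log2(FPKM + 1) and log2(FPKM + 0.1); leaving out 1 library gave 379 to 592. The number of changed factors was 2 under every alternative except without knockdown replicate 3 (leaving out 1 library gave 1 to 2), where Klf4 missed the threshold. DESeq2 gave no adjusted p for Fos and Fosb, so these factors were not judged in that setting. Signs turned only in factors that did not pass, on leaving out 1 library: over these settings Fos ran from -0.406 to 0.0535, Fosl2 from -0.133 to 0.0557, Jund from -0.100 to 0.0248 and Egr1 from -0.129 to 0.124. Fos turned without NC replicate 2, Fosl2 without NC replicate 3 or knockdown replicate 2, Jund without knockdown replicate 2, and Egr1 without NC replicate 2, knockdown replicate 2 or knockdown replicate 3; the cause was not tested. The log2 ratio of the family sums stayed between -0.06 and 0.09 for Fos, turning below 0 without NC replicate 1 or knockdown replicate 3, and between 0.02 and 0.06 for Jun, including sums of CPM, an alternative added after seeing the data; that of the ratio of the 2 sums was 0.01 by FPKM and -0.01 by CPM. Same-numbered libraries hardly deviated together (correlations 0.06, -0.00 and 0.06), so the numbers were not read as pairs. NC replicates 1 and 3 did correlate best with their own number, and NC replicate 2 did not. With the replicate block 481 genes and the same 2 factors changed. Fos and Fosb rest on 15 to 47 counts per library.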
